A study of Mus musculus with 12 samples.

Results

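The genes of macroautophagy and the MiT/TFE transcription factors that drive them, 45 mouse genes in all, were followed through 2 comparisons, shChrebp against shCtrl tumors and choline against PBS macrophages. The genes were taken by name from a list that runs from the transcription factors through initiation, membrane supply and conjugation to cargo receptors and the folliculin and Rag GTPase branch. All 45 had a row among the 22274 rows of the tumor table, matched by Ensembl identifier, and 44 had a row among the 19496 rows of the macrophage table, matched by symbol. Rragd was not analysed in the macrophages. The tumors were MC38, a mouse colon carcinoma line, injected under the skin of C57BL/6 mice. The shChrebp tumors came from cells carrying a hairpin against Chrebp (Mlxipl), a glucose-responsive transcription factor, and the shCtrl tumors from cells with a control hairpin, called shNC in the protocol and WT in the genotype label. Whether either line was 1 clone, and the age of the mice, are not given in the labels. The macrophages were grown from bone marrow (BMDM), primed for 4 h with LPS plus IFN-γ and afterwards kept in fresh medium with 200 µM choline for 24 h. Their controls are labelled PBS, and the sources used here do not describe the steps of the control group separately. Each group had 3 libraries, and nothing in the labels says that these came from separate mice or cultures, so the p-values measure the spread between libraries only. The PBS libraries are called PBS 1, PBS a and PBS b, because 2 columns of the macrophage table carry the same heading.

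Tumor libraries held 15844794 to 24181897 counts and macrophage libraries 34961739 to 35394365 reads. The hairpin's target could not be used to check the tumor labels, since Mlxipl, named by identifier, had 1, 1 and 2 counts in shChrebp tumors and 3, 1 and 1 counts in shCtrl tumors. The deposited symbol Mlxipl stands on another row, which is S1pr3 by identifier. That row had 190, 293 and 162 counts in shChrebp tumors and 376, 431 and 501 counts in shCtrl tumors. The library shCtrl 1 stood apart in epithelial transcripts, with the 6 listed markers summing to 10.8 to 11.8 CPM over the shChrebp tumors and 9.001 to 60.2 CPM over the shCtrl tumors, the highest value being that of shCtrl 1. The counts of called autophagy genes were the same without that library, 13 higher and 5 lower. In the material labelled as tumor tissue, all 7 T cell, 4 B cell and 4 NK cell markers were under 1 CPM in every library, as were 8 of 12 macrophage markers, with the macrophage receptor gene Adgre1 at 0 to 0.0633 CPM. The summed macrophage markers ran from 38.5 to 43.8 CPM in shChrebp and from 50.9 to 55.9 CPM in shCtrl tumors. The 8 fibroblast markers summed to 1078 to 1103 CPM in shChrebp and to 1664 to 1698 CPM in shCtrl tumors. The collagen genes Col1a2 and Col3a1 held most of that sum and were called lower (log2 fold change -0.23 and -1.4), as were Col1a1, Dcn and Pdgfra. Pdgfrb was not called (log2 fold change 0.12), and Lum and Thy1 were under 1 CPM in every library. Cd68 was the only macrophage marker called in tumors (log2 fold change -1.10), while Cd14 had a log2 fold change of 0.10 and was not called. In the macrophages, 9 of 12 macrophage markers had a row and summed to 4876 to 5305 FPKM with choline and 3790 to 3942 FPKM with PBS. Lyz2, the macrophage lysozyme gene, held most of that sum. With choline Lyz2, Adgre1 and Ptprc were called higher (log2 fold change 0.55, 0.34 and 0.445) and Cd14 lower (log2 fold change -0.11). Cd68, Csf1r and Itgam were not called there. Mrc1 and Mertk, both markers of mature macrophages, were at or near 0 in all 6 macrophage libraries. The part of these marker differences in the results below was not tested.

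Macroautophagy encloses cytoplasm in a double membrane and delivers it to lysosomes. The ULK1 kinase complex starts the membrane, a class III PI3-kinase complex marks it with a lipid, and ATG9, ATG2 and the WIPI proteins supply and position more membrane. Conjugation enzymes then attach ATG8 proteins (the LC3 and GABARAP families) to the membrane lipid, and receptors such as p62 tie cargo to them. TFEB, TFE3 and MITF are transcription factors that switch on lysosomal and autophagy genes, and mTORC1 holds them in the cytoplasm through the Rag GTPases. Folliculin, with its partners FNIP1 and FNIP2, is the activator of GTP hydrolysis on RagC and RagD that presents TFEB and TFE3 to mTORC1.

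Of the 44 autophagy genes tested in tumors, 13 rose and 5 fell in shChrebp tumors, and 26 were not called. A gene was called at an adjusted p under 0.05, from the quasi-likelihood test of edgeR and adjusted over all 11780 tested genes by the Benjamini-Hochberg method. By the same rule 18.6% of all tested genes were higher and 19.7% lower, 38.2% in all, against 29.5% higher and 11.4% lower of the 44 autophagy genes. The median log2 fold change was 0.04 over the 44 genes and -0.003 over all tested genes. The count of 5 lower genes became 3 without shCtrl 3, where Tfe3 and Calcoco1 were lost, and 3 with DESeq2. In the macrophages 42 autophagy genes were tested, of which 22 rose and 7 fell with choline and 13 were not called. There the test was limma on log2(FPKM + 0.1), a scale that understates the change of low genes, over 10028 genes with at least 1 FPKM in at least 3 libraries. Background was high in this comparison as well, with 28.2% of all tested genes higher and 29.2% lower, 57.4% in all, against 52.4% higher and 16.7% lower of the 42 autophagy genes. The median over the 42 genes was 0.16, against 0.003 over all tested genes. In bulk RNA, fewer cells of a type and less RNA per cell cannot be told apart, and this holds for every difference below.

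Of the 42 genes tested in both comparisons, 10 were called higher in both: Fnip1, Fnip2, Flcn, Rragc, Gabarap, Gabarapl2, Map1lc3b, Atg3, Uvrag and Rb1cc1. Tfe3 was called lower in both. Atg9a was higher in tumors and lower in macrophages, while Wipi2 and Calcoco1 were lower in tumors and higher in macrophages. Calls in tumors alone fell on 4 genes (Atg2b and Gabarapl1 higher, Wipi1 and Atg2a lower) and calls in macrophages alone on 15, of which 10 were higher and 5 lower. The remaining 9 were called in neither. Joint calls were not counted over all tested genes, so these joint counts cannot be set against a background share.

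**Figure D1:**
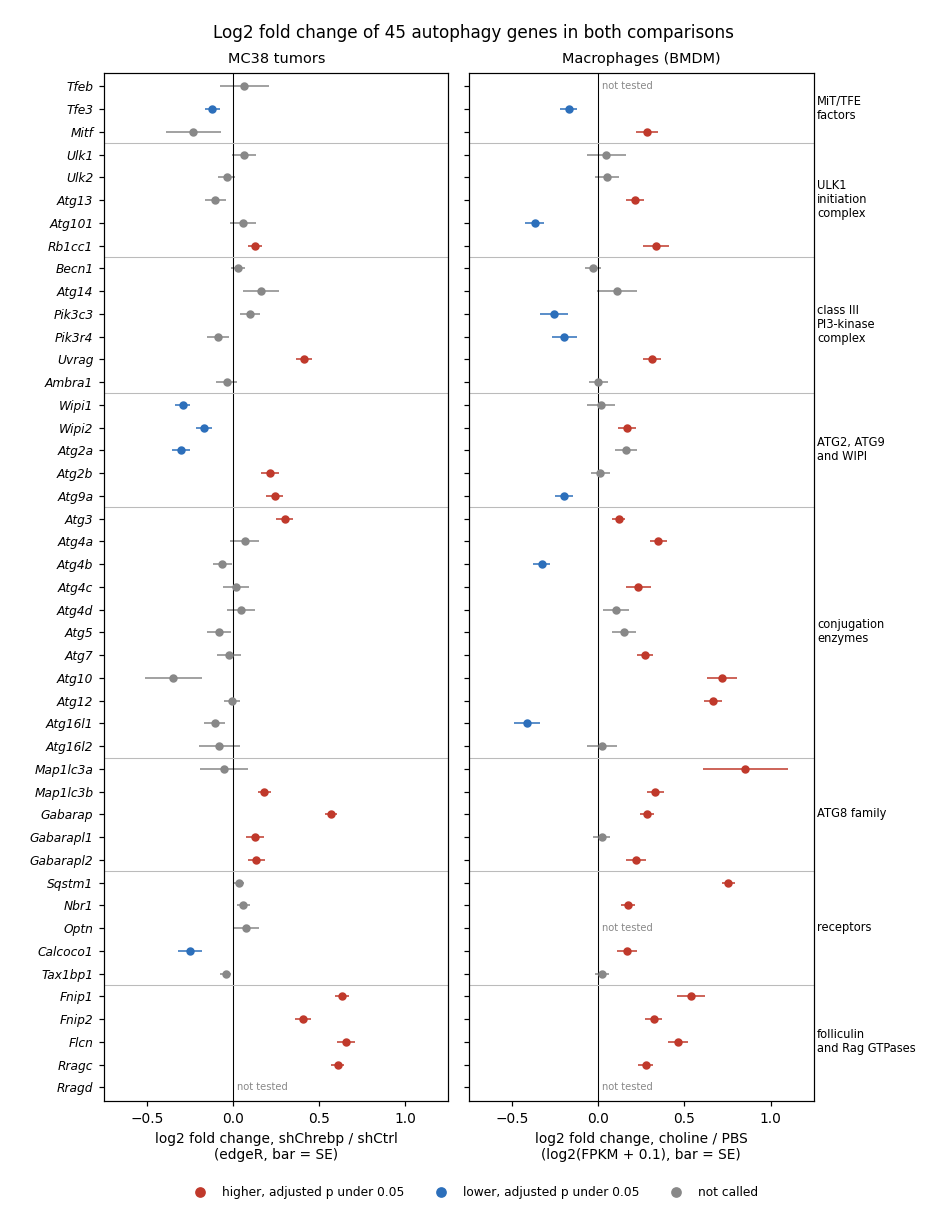
Log2 fold change of the 45 genes, ordered by role, in shChrebp against shCtrl tumors (left, edgeR) and choline against PBS macrophages (right, log2(FPKM + 0.1) scale). Points are estimates, bars are 1 SE, and colors mark calls at an adjusted p under 0.05. The folliculin and Rag GTPase genes lie to the right of 0 in both panels, with log2 fold changes of 0.40 to 0.66 in tumors and 0.28 to 0.54 in macrophages.

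Of the 3 MiT/TFE factors, 1 fell in tumors, and 1 rose and 1 fell in macrophages. Over all tested genes, 19.7% were lower in tumors, and 28.2% were higher and 29.2% lower in macrophages. Tfeb, which encodes the factor most studied as a driver of lysosomal genes, had 6.10, 6.23 and 5.58 CPM in shChrebp tumors, against 5.13, 5.90 and 6.12 CPM in shCtrl tumors. The groups overlapped, and Tfeb was not called (log2 fold change 0.06, SE 0.14, adjusted p = 0.766). In the macrophages Tfeb stayed under 1 FPKM in all but 1 library and was not tested, with 0.755, 0.808 and 0.798 FPKM in choline macrophages, against 1.064, 0.895 and 0.846 FPKM in PBS macrophages. These values rest on an implied length of 7548 bases, against 2342 bases for the longest annotated Tfeb transcript, and a greater length gives a lower FPKM. The 3 choline values lay below the 3 PBS values, and on the 202 to 285 reads per library recovered from the FPKM values edgeR gave a log2 fold change of -0.26 ± 0.12 (SE) with an adjusted p = 0.0782. DESeq2 on the same reads gave -0.26 with an adjusted p = 0.133. Without the filter, limma gave -0.22 with an adjusted p = 0.226, so Tfeb was called in none of these fits.

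Tfe3, which encodes the relative of TFEB that was most abundant in both tables, had 77.6, 77.3 and 73.3 CPM in shChrebp tumors, against 81.4, 85.1 and 82.0 CPM in shCtrl tumors. The shChrebp values all lay below the shCtrl values, and Tfe3 fell (log2 fold change -0.12, SE 0.04, adjusted p = 0.0297). The call was fragile. It held under 4 of 11 other settings, and without shChrebp 1, shChrebp 3, shCtrl 2 or shCtrl 3 it was lost (log2 fold change -0.13 to -0.10, adjusted p = 0.0552 to 0.136). On deposited FPKM, which also carries the length assigned to the gene in each library, Tfe3 averaged 31.4 ± 4.72 FPKM in shChrebp and 31.6 ± 1.32 FPKM in shCtrl tumors, where the groups overlapped. In macrophages Tfe3 had 17.8, 17.6 and 16.5 FPKM in choline macrophages, against 19.6, 20.1 and 18.8 FPKM in PBS macrophages. It fell there too, with no overlap between groups (log2 fold change -0.17, SE 0.05, adjusted p = 0.0123), and this call held under every alternative run.

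Mitf, best known as the regulator of melanocytes, had 4.14, 4.19 and 4.53 CPM in shChrebp tumors, against 4.37, 5.06 and 5.60 CPM in shCtrl tumors. It was not called in tumors (log2 fold change -0.23, SE 0.16, adjusted p = 0.274). With choline it rose, and all 3 choline values were above the PBS values: Mitf had 5.80, 5.48 and 5.62 FPKM in choline macrophages, against 4.69, 4.35 and 4.83 FPKM in PBS macrophages (log2 fold change 0.28, SE 0.06, adjusted p = 0.00409). Of the summed FPKM of the 3 factors, Tfe3 made up 88.0 to 90.3% in shChrebp tumors and 87.9 to 90.5% in shCtrl tumors. In macrophages it made up 72.1 to 73.7% with choline and 76.9 to 79.3% with PBS, while Mitf made up 22.9 to 24.5% with choline and 17.2 to 19.7% with PBS. The macrophage shares depend on the implied lengths, which for Mitf was 10713 bases, against 4881 bases for its longest annotated transcript.

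The folliculin and Rag GTPase branch was the role group in which every tested gene rose in both comparisons. Over all tested genes, 18.6% were higher in tumors and 28.2% in macrophages. The 4 tested genes of the branch had a median log2 fold change of 0.62 in tumors and 0.39 in macrophages. Promoters of these 4 genes and of Atg3, a conjugation gene chosen for its 2 copies of the motif, are shown because MiT/TFE factors bind the E-box core CACGTG. This core is its own reverse complement, so that 1 search reads both strands. The sequences are RefSeq windows of 300 bases, 250 before to 50 after the gene's start, on GRCm38.p6, which is not the build of the tables (GRCm39). Capitals mark CACGTG.
Rragc (chr4:123917183-123917482, plus strand): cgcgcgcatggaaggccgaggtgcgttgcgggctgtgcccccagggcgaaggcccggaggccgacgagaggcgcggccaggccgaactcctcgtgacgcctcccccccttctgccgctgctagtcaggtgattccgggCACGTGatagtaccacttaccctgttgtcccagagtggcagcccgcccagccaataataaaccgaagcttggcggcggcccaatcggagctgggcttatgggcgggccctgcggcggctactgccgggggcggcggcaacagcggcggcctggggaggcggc
Fnip1 (chr11:54437929-54438228, plus strand): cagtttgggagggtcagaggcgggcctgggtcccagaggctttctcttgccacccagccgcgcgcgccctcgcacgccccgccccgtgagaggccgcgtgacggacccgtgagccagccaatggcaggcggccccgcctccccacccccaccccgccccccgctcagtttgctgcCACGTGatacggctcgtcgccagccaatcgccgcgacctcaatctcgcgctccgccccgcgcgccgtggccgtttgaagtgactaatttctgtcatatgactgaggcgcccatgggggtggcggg
Flcn (chr11:59809990-59810289, minus strand): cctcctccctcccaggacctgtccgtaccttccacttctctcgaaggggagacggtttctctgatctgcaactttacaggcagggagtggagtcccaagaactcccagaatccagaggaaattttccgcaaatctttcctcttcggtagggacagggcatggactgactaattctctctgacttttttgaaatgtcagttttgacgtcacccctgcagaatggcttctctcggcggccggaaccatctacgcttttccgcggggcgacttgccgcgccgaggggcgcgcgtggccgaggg
Fnip2 (chr3:79567630-79567929, minus strand): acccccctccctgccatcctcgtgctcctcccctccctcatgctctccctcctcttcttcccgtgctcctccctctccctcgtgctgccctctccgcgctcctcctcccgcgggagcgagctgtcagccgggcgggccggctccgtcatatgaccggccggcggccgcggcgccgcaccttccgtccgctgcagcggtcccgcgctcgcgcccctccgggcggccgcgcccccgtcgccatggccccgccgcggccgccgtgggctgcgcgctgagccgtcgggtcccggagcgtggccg
Atg3 (chr16:45158579-45158878, plus strand): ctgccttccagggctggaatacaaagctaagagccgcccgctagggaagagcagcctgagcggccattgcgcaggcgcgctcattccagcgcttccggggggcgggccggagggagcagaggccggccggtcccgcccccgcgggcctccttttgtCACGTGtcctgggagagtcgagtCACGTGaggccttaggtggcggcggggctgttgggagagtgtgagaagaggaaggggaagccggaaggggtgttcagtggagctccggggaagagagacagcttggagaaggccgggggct
In the Rragc window the core starts 112 bases before the gene's start, and in the Fnip1 window 75 bases before it. The Atg3 window, of a conjugation gene that also rose in both comparisons, holds it at 94 and 71 bases before the start. The letters do not occur in the Flcn and Fnip2 windows, so that 2 of the 4 windows of the branch hold them. Neither presence nor absence of the letters shows which factors bind there, and binding was not tested. Windows were found for 39 of the 45 genes, and 6 of the 39 (15.4%) held CACGTG: Rragc, Fnip1, Atg3, Atg5, Atg7 and Atg14. Over all 27025 genes with a window the share was 8.09%. The longer TCACGTGA occurred in Atg3 only among the 39 (2.56%, against 1.12% of all genes), and the full CLEAR element, which has a G before and a C after that word, in none of the 39 (against 0.37% of all genes). Each of the longer words contains CACGTG.

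Flcn, the gene of folliculin itself, had 69.4, 73.7 and 70.7 CPM in shChrebp tumors, against 44.5, 46.8 and 44.7 CPM in shCtrl tumors. The groups were well apart, and Flcn rose in shChrebp tumors (log2 fold change 0.66, SE 0.05, adjusted p = 6.24e-12). With choline it rose as well: 6.85, 7.08 and 6.87 FPKM in choline macrophages, against 5.18, 5.01 and 4.84 FPKM in PBS macrophages. Again every choline value was above every PBS value (log2 fold change 0.46, SE 0.06, adjusted p = 9.6e-05).

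Fnip1, a folliculin partner with the E-box shown above, had 152, 158 and 162 CPM in shChrebp tumors, against 99.5, 105 and 99.5 CPM in shCtrl tumors. The lowest shChrebp tumor was well above the highest shCtrl tumor (log2 fold change 0.63, SE 0.04, adjusted p = 5.9e-14). In macrophages Fnip1 reached 21.3, 23.3 and 26.3 FPKM in choline macrophages, against 16.1, 15.1 and 17.6 FPKM in PBS macrophages. The choline libraries were all higher but spread more widely than the PBS libraries (log2 fold change 0.54, SE 0.08, adjusted p = 0.000382). Fnip2, the second partner, had 71.4, 70.1 and 71.7 CPM in shChrebp tumors, against 53.0, 54.2 and 53.7 CPM in shCtrl tumors. It rose with little spread in either tumor group (log2 fold change 0.40, SE 0.05, adjusted p = 4.23e-08). Under choline Fnip2 had 18.9, 20.2 and 20.3 FPKM in choline macrophages, against 15.2, 15.98 and 16.3 FPKM in PBS macrophages, and it rose there too (log2 fold change 0.32, SE 0.05, adjusted p = 0.000351).

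Rragc encodes RagC, the GTPase that folliculin acts on. It had 202, 214 and 207 CPM in shChrebp tumors, against 138, 133 and 138 CPM in shCtrl tumors, and rose without overlap (log2 fold change 0.61, SE 0.04, adjusted p = 1.87e-14). In macrophages its levels were 66.3, 71.5 and 72.3 FPKM in choline macrophages, against 58.1, 58.3 and 56.9 FPKM in PBS macrophages. The rise was smaller there but again without overlap (log2 fold change 0.28, SE 0.04, adjusted p = 0.000418). Whether the tumor and macrophage changes differ was not tested, since the tables were normalized separately. Rragd, the gene of the sister GTPase RagD, was listed at 0 in all 3 shChrebp tumors and at 2, 0 and 1 counts in shCtrl tumors, too few to test. The 5 genes summed to 138 to 143 FPKM in shChrebp tumors and to 92.1 to 92.8 FPKM in shCtrl tumors, with Rragc at 56.6 to 57.3% of the sum in shChrebp and 55.4 to 57.5% in shCtrl. All 8 calls of this branch held under every alternative run.

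**Figure D2:**
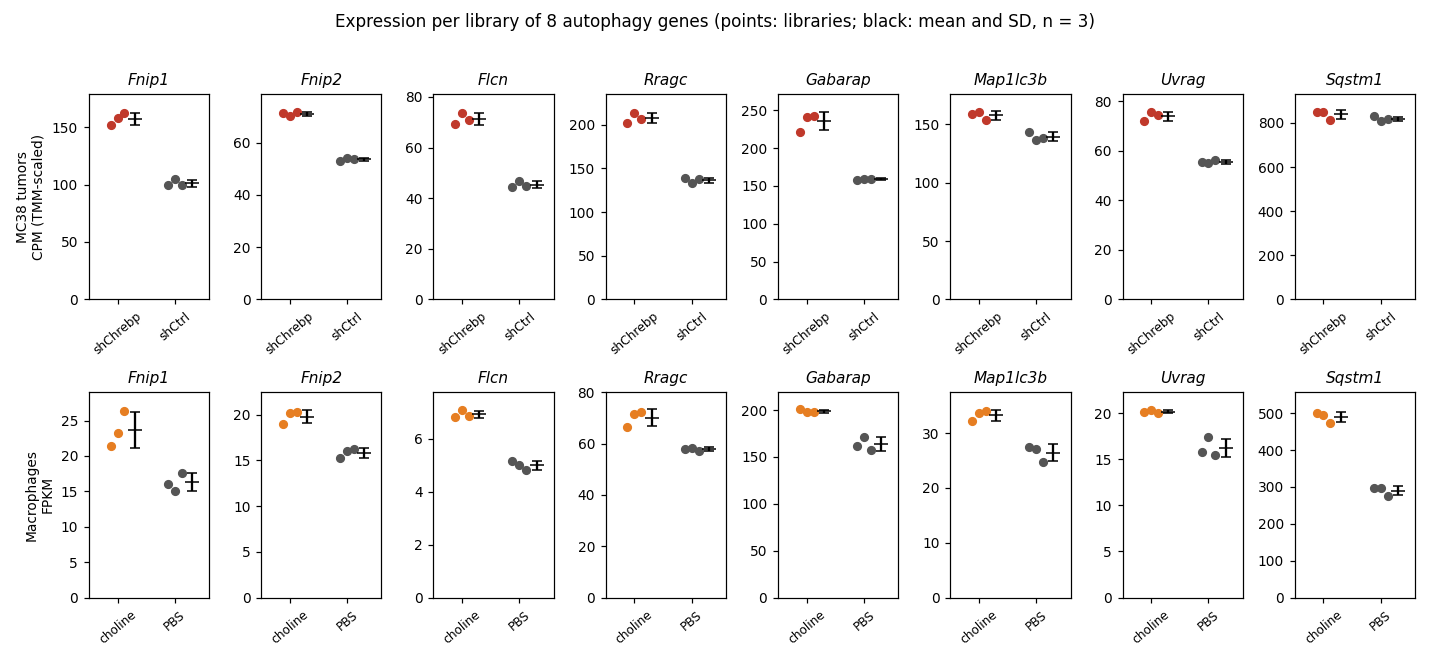
Expression per library of 8 of the genes, as CPM in the tumors (top row, shChrebp left of shCtrl) and as FPKM in the macrophages (bottom row, choline left of PBS). Points are libraries and black bars are mean and SD of 3 libraries. Sqstm1 overlaps between the tumor groups, at 810.3 to 851 CPM, and is apart in the macrophages, at 474 to 502 FPKM with choline and 276 to 297 FPKM with PBS.

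Of the ULK1 initiation complex, 1 of 5 genes rose in tumors, while 2 rose and 1 fell in macrophages. The tumor count was near background, with 18.6% of all tested genes higher there. In macrophages 28.2% of all tested genes were higher and 29.2% lower. Rb1cc1, the gene of the scaffold FIP200, had 149, 156 and 163 CPM in shChrebp tumors, against 140.2, 147 and 142 CPM in shCtrl tumors. The groups did not overlap, though the highest shCtrl value came close to the lowest shChrebp value. Rb1cc1 rose slightly in shChrebp tumors (log2 fold change 0.13, SE 0.04, adjusted p = 0.0111), a call lost without shChrebp 3 (log2 fold change 0.10, adjusted p = 0.0808) and on the FPKM values. With choline Rb1cc1 rose clear of the PBS values, at 11.4, 12.6 and 13.9 FPKM in choline macrophages, against 10.1, 9.36 and 10.4 FPKM in PBS macrophages (log2 fold change 0.34, SE 0.07, adjusted p = 0.00364). Atg13, which encodes an adaptor of the kinase, rose with choline (30.5, 31.0 and 28.9 FPKM in choline macrophages, against 26.3, 27.5 and 24.4 FPKM in PBS macrophages; log2 fold change 0.21, SE 0.05, adjusted p = 0.00741). Atg101, the gene of its binding partner, fell without overlap: 13.9, 14.7 and 12.9 FPKM in choline macrophages, against 17.9, 18.3 and 17.5 FPKM in PBS macrophages (log2 fold change -0.37, SE 0.06, adjusted p = 0.000318). The kinase genes Ulk1 and Ulk2 were not called in either comparison. The uncalled genes of the complex had log2 fold changes of -0.10 to 0.06 in tumors (4 genes) and 0.05 to 0.05 in macrophages (2 genes).

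In the class III PI3-kinase complex the gene that rose in both comparisons was Uvrag, which encodes the subunit of the complex that acts on late membranes and endosomes. It had 71.9, 75.6 and 74.3 CPM in shChrebp tumors, against 55.5, 54.9 and 56.3 CPM in shCtrl tumors. No shCtrl value reached the shChrebp range (log2 fold change 0.41, SE 0.05, adjusted p = 2.76e-08). With choline it stood at 20.1, 20.4 and 19.998 FPKM in choline macrophages, against 15.8, 17.4 and 15.5 FPKM in PBS macrophages. The 3 choline values lay close together and above all PBS values (log2 fold change 0.31, SE 0.05, adjusted p = 0.000645). Becn1, the gene of the core subunit beclin 1, had 98.8, 92.9 and 94.8 CPM in shChrebp tumors, against 92.2, 94.7 and 94.1 CPM in shCtrl tumors. The groups overlapped and Becn1 was not called (log2 fold change 0.03, SE 0.04, adjusted p = 0.657). Nor was it called in macrophages, where it had 41.0, 45.4 and 44.0 FPKM in choline macrophages, against 43.8, 45.6 and 43.8 FPKM in PBS macrophages (log2 fold change -0.03, SE 0.05, adjusted p = 0.61). The genes of the lipid kinase and its regulatory subunit, Pik3c3 and Pik3r4, fell with choline. Pik3c3 had 2.05, 2.21 and 2.06 FPKM in choline macrophages, against 2.66, 2.53 and 2.42 FPKM in PBS macrophages (log2 fold change -0.26, SE 0.08, adjusted p = 0.0212). Pik3r4 had 5.33, 5.58 and 4.87 FPKM in choline macrophages, against 5.66, 6.32 and 6.14 FPKM in PBS macrophages (log2 fold change -0.20, SE 0.07, adjusted p = 0.0393). Both calls were fragile. That of Pik3c3 was lost without choline 1, choline 3, PBS 1 or PBS a (log2 fold change -0.26 to -0.22, adjusted p = 0.0507 to 0.0834), and that of Pik3r4 without choline 1, choline 3, PBS a or PBS b (log2 fold change -0.21 to -0.14, adjusted p = 0.0624 to 0.131). The uncalled genes of the complex, Becn1 included, ran from -0.09 to 0.16 in tumors (5 genes) and from -0.03 to 0.11 in macrophages (3 genes).

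All 5 genes of membrane supply were called in tumors, against 38.2% of all tested genes, and not in 1 direction. Wipi1, which encodes a reader of the PI3-kinase's lipid, fell: it had 70.0, 72.0 and 73.0 CPM in shChrebp tumors, against 87.5, 87.3 and 88.5 CPM in shCtrl tumors (log2 fold change -0.29, SE 0.04, adjusted p = 2.43e-06). Atg2a, the gene of a lipid transfer protein, fell as well, with 42.6, 46.2 and 44.1 CPM in shChrebp tumors, against 55.0, 56.8 and 52.8 CPM in shCtrl tumors (log2 fold change -0.30, SE 0.05, adjusted p = 4.02e-05). Neither group pair overlapped. Its paralog Atg2b went the other way, with 92.0, 90.8 and 92.8 CPM in shChrebp tumors, against 70.4, 85.8 and 81.2 CPM in shCtrl tumors, the shCtrl libraries spreading far more than the shChrebp ones (log2 fold change 0.21, SE 0.05, adjusted p = 0.00368). Atg9a, which encodes the lipid scramblase of the seed vesicles, rose in tumors, with 78.4, 71.4 and 72.3 CPM in shChrebp tumors, against 60.3, 64.1 and 63.4 CPM in shCtrl tumors (log2 fold change 0.24, SE 0.05, adjusted p = 0.000228). In macrophages it fell with choline, to 12.7, 12.5 and 12.3 FPKM in choline macrophages, against 14.5, 15.0 and 13.6 FPKM in PBS macrophages (log2 fold change -0.20, SE 0.05, adjusted p = 0.00702). Wipi2, the gene of the reader that recruits the conjugation machinery, fell in tumors (66.5, 66.4 and 63.7 CPM in shChrebp tumors, against 72.2, 74.5 and 74.8 CPM in shCtrl tumors; log2 fold change -0.17, SE 0.05, adjusted p = 0.00339) and rose with choline (27.3, 28.8 and 26.0 FPKM in choline macrophages, against 24.9, 25.1 and 23.1 FPKM in PBS macrophages; log2 fold change 0.17, SE 0.05, adjusted p = 0.0206). The tumor call was lost on FPKM (log2 fold change -0.02, adjusted p = 0.732), where the length implied for Wipi2 was 3809 to 3926 bases in shChrebp and 4137 to 4356 bases in shCtrl libraries. The macrophage call was lost without choline 2 or PBS b (log2 fold change 0.13, adjusted p = 0.0596 to 0.0954). In macrophages Wipi1, Atg2a and Atg2b were not called, with adjusted p = 0.0557 to 0.878.

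Of the 11 conjugation genes, 1 rose in tumors and 10 were not called (9.09% higher, against 18.6% of all tested genes). With choline 6 rose and 2 fell (54.5% and 18.2%, against 28.2% and 29.2% of all tested genes). Atg3, which encodes the enzyme that hands ATG8 proteins to the lipid, was the tumor call, with 61.6, 62.3 and 66.5 CPM in shChrebp tumors, against 50.9, 54.2 and 49.5 CPM in shCtrl tumors (log2 fold change 0.30, SE 0.05, adjusted p = 3.05e-05). In macrophages Atg3 had 55.0, 54.5 and 55.5 FPKM in choline macrophages, against 49.5, 51.9 and 50.4 FPKM in PBS macrophages, a small rise (log2 fold change 0.12, SE 0.04, adjusted p = 0.021) lost without choline 2, choline 3 or PBS 1 (log2 fold change 0.10 to 0.12, adjusted p = 0.0582 to 0.0967). Atg12, the gene of the ubiquitin-like protein joined to ATG5, rose with choline to 23.8, 23.7 and 24.8 FPKM in choline macrophages, against 14.7, 14.6 and 16.2 FPKM in PBS macrophages. The groups were far apart (log2 fold change 0.67, SE 0.05, adjusted p = 5.34e-06). In tumors it had 62.7 ± 0.332 CPM in shChrebp and 62.9 ± 2.42 CPM in shCtrl and was not called. Atg10, which encodes the enzyme that makes the ATG12-ATG5 link, rose with choline at low levels, with 4.16, 3.90 and 3.41 FPKM in choline macrophages, against 2.33, 2.22 and 2.30 FPKM in PBS macrophages on 246 to 304 reads with choline and 161 to 170 reads with PBS (log2 fold change 0.72, SE 0.09, adjusted p = 8.7e-05). Atg7, the gene of the activating enzyme for both conjugation routes, also rose (13.04, 12.9 and 12.5 FPKM in choline macrophages, against 10.51, 10.9 and 10.4 FPKM in PBS macrophages; log2 fold change 0.27, SE 0.05, adjusted p = 0.000884).

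Atg16l1 fell with choline. It encodes the partner that places the ATG12-ATG5 conjugate on the membrane, and it had 9.07, 8.76 and 7.49 FPKM in choline macrophages, against 11.1, 11.6 and 11.1 FPKM in PBS macrophages (log2 fold change -0.41, SE 0.07, adjusted p = 0.000888). Atg5 itself was not called in either comparison. The 4 ATG4 protease genes, which trim ATG8 proteins and free them from the lipid, went different ways with choline. Atg4a rose (10.54, 10.4 and 10.4 FPKM in choline macrophages, against 7.95, 8.32 and 8.29 FPKM in PBS macrophages; log2 fold change 0.35, SE 0.05, adjusted p = 0.000222). Atg4b, the broadest-acting of the proteases, fell (10.1, 9.64 and 9.21 FPKM in choline macrophages, against 12.1, 12.1 and 12.1 FPKM in PBS macrophages; log2 fold change -0.33, SE 0.05, adjusted p = 0.000397). Atg4c rose a little (2.98, 2.96 and 2.95 FPKM in choline macrophages, against 2.52, 2.41 and 2.59 FPKM in PBS macrophages; log2 fold change 0.23, SE 0.07, adjusted p = 0.0193), a call lost without choline 2, PBS 1 or PBS a (log2 fold change 0.21 to 0.24, adjusted p = 0.0502 to 0.0616). Atg4d was not called. In tumors the ATG4 genes were not called, and the 10 uncalled conjugation genes ran from -0.35 to 0.07 with adjusted p = 0.0953 to 0.936. In macrophages Atg4d, Atg5 and Atg16l2 ran from 0.02 to 0.15.

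Of the 5 ATG8 genes, 4 rose and 1 was not called in each comparison, and 3 rose in both. The share higher was 80.0% in each, against 18.6% of all tested genes in tumors and 28.2% in macrophages. Gabarap, the founding member of the GABARAP branch, had 222, 242 and 243 CPM in shChrebp tumors, against 157, 159 and 159.6 CPM in shCtrl tumors. The lowest shChrebp tumor was far above the tight shCtrl values (log2 fold change 0.57, SE 0.04, adjusted p = 1.64e-13). In macrophages it had 201, 198 and 198 FPKM in choline macrophages, against 162, 172 and 157 FPKM in PBS macrophages (log2 fold change 0.28, SE 0.04, adjusted p = 0.000202). Map1lc3b, which encodes LC3B, the usual autophagosome marker, had 159, 161 and 154 CPM in shChrebp tumors, against 144, 136 and 139 CPM in shCtrl tumors. The rise was modest and without overlap (log2 fold change 0.18, SE 0.04, adjusted p = 0.000283). With choline Map1lc3b stood at 32.2, 33.6 and 34.0 FPKM in choline macrophages, against 27.5, 27.1 and 24.8 FPKM in PBS macrophages, also without overlap (log2 fold change 0.33, SE 0.05, adjusted p = 0.000374). Gabarapl2 rose in tumors although 1 shCtrl library lay within the shChrebp range: it had 145, 130.3 and 132 CPM in shChrebp tumors, against 132, 119.6 and 119 CPM in shCtrl tumors (log2 fold change 0.14, SE 0.05, adjusted p = 0.0276). That call was lost without shChrebp 1, shCtrl 2 or shCtrl 3 (log2 fold change 0.09 to 0.11, adjusted p = 0.127 to 0.149), whereas the rise with choline (61.6, 66.3 and 58.5 FPKM in choline macrophages, against 57.5, 51.4 and 51.1 FPKM in PBS macrophages; log2 fold change 0.22, SE 0.06, adjusted p = 0.0107) held under every alternative run.

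Gabarapl1 rose in tumors (58.3, 57.6 and 56.0 CPM in shChrebp tumors, against 55.0, 50.03 and 52.3 CPM in shCtrl tumors; log2 fold change 0.13, SE 0.05, adjusted p = 0.0477), close to the threshold. The call was lost without shChrebp 1, shChrebp 2, shChrebp 3, shCtrl 2 or shCtrl 3 (log2 fold change 0.10 to 0.15, adjusted p = 0.0501 to 0.208). In macrophages it was not called (30.8 ± 0.925 FPKM with choline and 30.4 ± 1.47 FPKM with PBS). Map1lc3a, the gene of LC3A, was not called in tumors (6.61 ± 0.198 CPM in shChrebp and 6.86 ± 1.102 CPM in shCtrl) and rose with choline at very low levels, with 2.24, 2.82 and 1.69 FPKM in choline macrophages, against 1.29, 0.787 and 1.58 FPKM in PBS macrophages on 62 to 104 reads with choline and 29 to 58 reads with PBS (log2 fold change 0.85, SE 0.25, adjusted p = 0.0166). That call was lost without choline 2 (log2 fold change 0.68, adjusted p = 0.0606), and with a pseudocount of 1 the log2 fold change was 0.55. The 5 genes summed to 397 to 405 FPKM in shChrebp tumors and 309 to 328 FPKM in shCtrl tumors. Gabarap took 41.2 to 45.9% of the sum in shChrebp and 35.7 to 38.4% in shCtrl tumors. In macrophages the sum was 322 to 331 FPKM with choline and 264 to 283 FPKM with PBS, and the share of Gabarap overlapped, at 59.7 to 61.5% with choline and 58.2 to 60.7% with PBS.

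Of the 5 cargo receptor genes, 1 fell in tumors and 4 were not called, and 3 of the 4 tested in macrophages rose with choline. Over all tested genes, 19.7% were lower in tumors and 28.2% were higher with choline, so the tumor count was near background. Sqstm1 encodes p62, a receptor for ubiquitin-marked cargo. In tumors it had 851, 851 and 815 CPM in shChrebp tumors, against 829, 810.3 and 819 CPM in shCtrl tumors. The groups overlapped and Sqstm1 was not called (log2 fold change 0.03, SE 0.03, adjusted p = 0.382). With choline it had 502, 495 and 474 FPKM in choline macrophages, against 297, 297 and 276 FPKM in PBS macrophages, all choline values far above all PBS values (log2 fold change 0.76, SE 0.04, adjusted p = 6.16e-07). The difference between the 2 comparisons was not tested. Nbr1, the gene of a partner receptor of p62, rose with choline (33.9, 33.8 and 32.9 FPKM in choline macrophages, against 30.2, 30.2 and 28.9 FPKM in PBS macrophages; log2 fold change 0.17, SE 0.04, adjusted p = 0.00486) and was not called in tumors (175 ± 3.09 CPM in shChrebp and 168 ± 7.57 CPM in shCtrl). Calcoco1, which encodes a receptor for endoplasmic reticulum and Golgi, fell in tumors, with 27.7, 27.2 and 25.8 CPM in shChrebp tumors, against 28.7, 33.0 and 34.2 CPM in shCtrl tumors (log2 fold change -0.25, SE 0.07, adjusted p = 0.00514). Without shCtrl 3 that call was lost (log2 fold change -0.20, adjusted p = 0.0553). Its rise with choline (7.81, 7.92 and 8.28 FPKM in choline macrophages, against 6.67, 7.43 and 7.28 FPKM in PBS macrophages; log2 fold change 0.17, SE 0.06, adjusted p = 0.0385) was lost without choline 2, choline 3 or PBS 1 (log2 fold change 0.12 to 0.17, adjusted p = 0.0823 to 0.154). Tax1bp1, a further ubiquitin-binding receptor gene, was not called in either comparison. Optn, the gene of optineurin, had 22.8 ± 1.23 CPM in shChrebp and 21.5 ± 1.56 CPM in shCtrl and was not called in tumors. In macrophages it had 1 read in 1 choline library and none in the other 5 libraries.

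**Figure D3:**
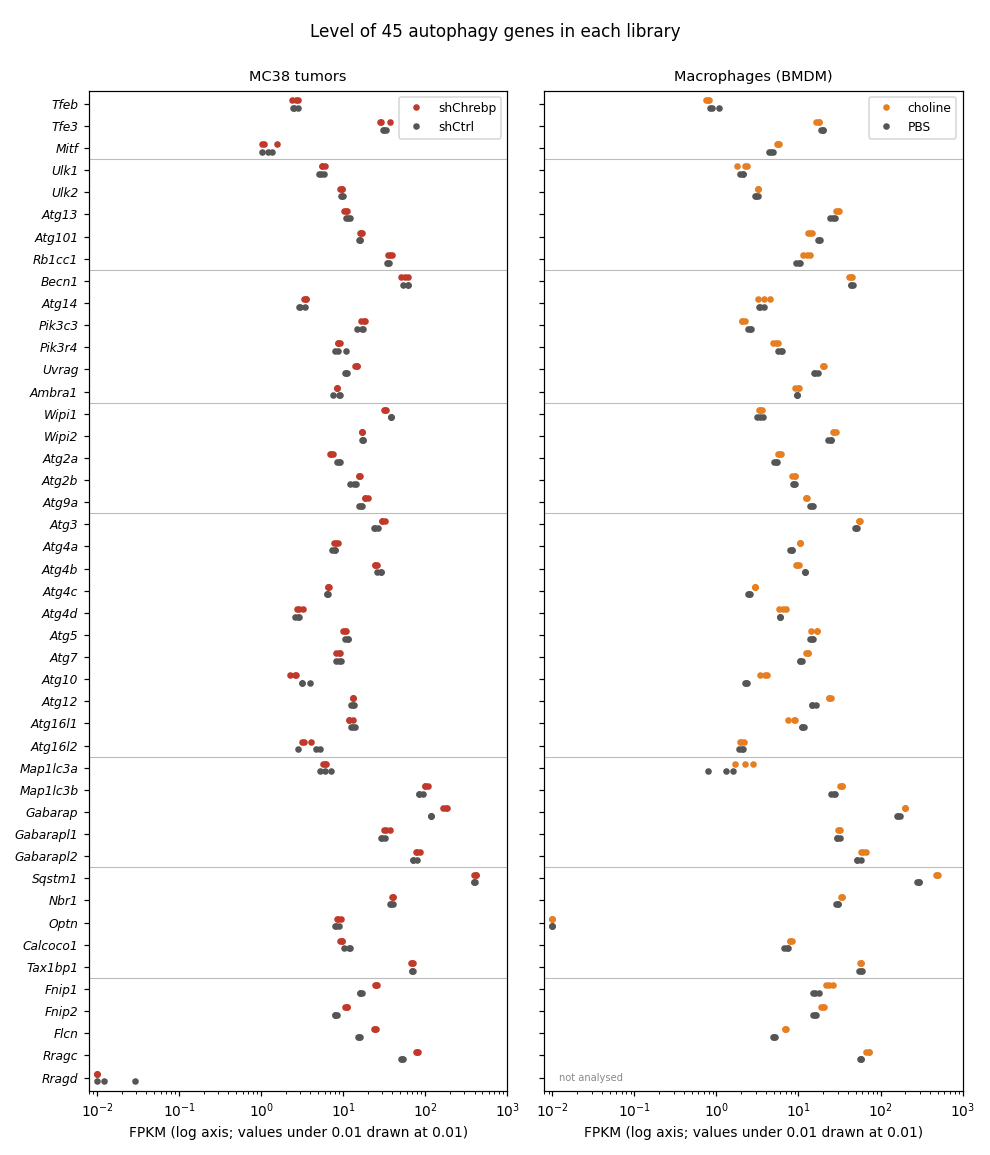
FPKM of each of the 45 genes in every library, on a log axis, with shChrebp above shCtrl in tumors (left) and choline above PBS in macrophages (right). Values under 0.01 are drawn at 0.01. Sqstm1 and Gabarap lie at the top of both panels, with means over the 6 libraries of 404 and 147 FPKM in tumors and 390.1 and 181 FPKM in macrophages.

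Levels per transcript length spanned a wide range. In tumors Sqstm1 led with 409.8 ± 8.97 FPKM in shChrebp and 397 ± 3.67 FPKM in shCtrl tumors, followed by Gabarap, Map1lc3b, Gabarapl2 and Tax1bp1. The ranges over libraries of Map1lc3b (84.5 to 108 FPKM) and Gabarapl2 (70.4 to 86.8 FPKM) overlapped, as did those of Gabarapl2 and Tax1bp1 (67.4 to 71.1 FPKM). In macrophages Sqstm1 and Gabarap led as well, followed by Rragc, Gabarapl2 and Tax1bp1, whose overlapping ranges ran from 51.1 to 72.3 FPKM. Map1lc3b stood lower there, at 24.8 to 34.0 FPKM. Comparisons between genes depend on the length the authors assigned. In the macrophage table that length exceeded the longest annotated transcript by more than 10% for 17 of 44 genes, among them Fnip2, Flcn, Mitf, Tfeb and Sqstm1, and in the tumor table for 0 of 45.

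Other genes of the pathway were taken from lists, again by name. The lysosomal targets of TFEB (the CLEAR network) were called higher more often than lower. Of 23 tested in tumors, 15 rose, 2 fell and 6 were not called (65.2% higher and 8.7% lower, against 18.6% and 19.7% of all tested genes), with a median log2 fold change of 0.29. With choline 21 of 25 rose and 4 were not called (84.0% higher, against 28.2% of all tested genes), with a median of 0.31. Lamp1, which encodes the main lysosomal membrane glycoprotein, averaged 1022 ± 19.2 CPM in shChrebp and 711 ± 3.37 CPM in shCtrl tumors (log2 fold change 0.52, SE 0.03, adjusted p = 1.91e-15), and it rose with choline too (log2 fold change 0.41, adjusted p = 2.74e-05). The proton pump genes Atp6v0d1 (80.3 ± 1.88 CPM in shChrebp and 51.3 ± 2.32 CPM in shCtrl; log2 fold change 0.65, SE 0.05, adjusted p = 3.71e-12) and Atp6v1h (129.8 ± 2.09 CPM in shChrebp and 88.8 ± 1.65 CPM in shCtrl; log2 fold change 0.55, SE 0.04, adjusted p = 1.78e-12) rose in tumors, as did Gpnmb, the gene of a lysosomal and melanosomal glycoprotein (739 ± 2.02 CPM in shChrebp and 563 ± 8.46 CPM in shCtrl; log2 fold change 0.39, SE 0.03, adjusted p = 2.09e-12). Atp6v1h also rose with choline (log2 fold change 0.30, adjusted p = 0.000102). The genes that fell in tumors, named after their values were seen, were Ctsl, of the protease cathepsin L (log2 fold change -0.15, adjusted p = 0.000119), and Naglu, of a glycosidase (log2 fold change -0.37, adjusted p = 1e-05). Both rose with choline (Ctsl with log2 fold change 0.30, adjusted p = 2.85e-05; Naglu with log2 fold change 0.32, adjusted p = 0.00469). With choline, the leading calls were Gpnmb (197 ± 10.2 FPKM with choline and 115 ± 4.14 FPKM with PBS; log2 fold change 0.77, SE 0.05, adjusted p = 1e-06) and Gla, which encodes alpha-galactosidase (29.9 ± 0.670 FPKM with choline and 17.8 ± 0.697 FPKM with PBS; log2 fold change 0.74, SE 0.04, adjusted p = 1.21e-06). Atp6v0d1 (146 ± 3.19 FPKM with choline and 104 ± 3.66 FPKM with PBS; log2 fold change 0.48, SE 0.04, adjusted p = 5.95e-06) and the peptidase gene Tpp1 (53.5 ± 1.83 FPKM with choline and 37.9 ± 0.934 FPKM with PBS; log2 fold change 0.49, SE 0.04, adjusted p = 9.04e-06) rose too. Gla (log2 fold change 0.56, adjusted p = 8.24e-09) and Tpp1 (log2 fold change 0.47, adjusted p = 9.01e-11) also rose in tumors. The summed macrophage markers were higher with choline and lower in shChrebp tumors, as given above. Single markers differed in direction with choline, and in tumors Cd68 alone was called. The part of these markers in the counts was not tested.

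Of the genes that fuse autophagosomes with lysosomes, 8 of 15 rose in tumors and 7 were not called (53.3% higher, against 18.6% of all tested genes), with a median log2 fold change of 0.22. In macrophages 5 of 14 rose and 4 fell (35.7% and 28.6%, against 28.2% and 29.2% of all tested genes), with a median of -0.02. Rab7, the late endosome GTPase gene, rose in both, with 368 ± 2.36 CPM in shChrebp and 315 ± 7.37 CPM in shCtrl tumors (log2 fold change 0.22, SE 0.03, adjusted p = 1.06e-06) and 148 ± 1.66 FPKM with choline and 118 ± 3.10 FPKM with PBS (log2 fold change 0.32, SE 0.04, adjusted p = 4.32e-05). Arl8b, which encodes the GTPase that moves lysosomes outward, rose in both (log2 fold change 0.35, SE 0.04, adjusted p = 1.12e-08 in tumors; log2 fold change 0.32, SE 0.05, adjusted p = 0.00042 in macrophages). In tumors Plekhm1, an adaptor between RAB7 and the tethering complex, rose (log2 fold change 0.34, SE 0.05, adjusted p = 1.22e-06), whereas with choline it fell (log2 fold change -0.13, adjusted p = 0.0298). Also higher in tumors was Vps33a, of that complex (log2 fold change 0.43, SE 0.07, adjusted p = 4.62e-06). Arl8a, of a related GTPase, rose with choline (log2 fold change 0.34, SE 0.04, adjusted p = 0.000106) and in tumors (log2 fold change 0.22, adjusted p = 0.00214). With choline Snap29, of the fusion SNARE complex, fell (log2 fold change -0.38, SE 0.05, adjusted p = 0.000181).

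**Figure D4:**
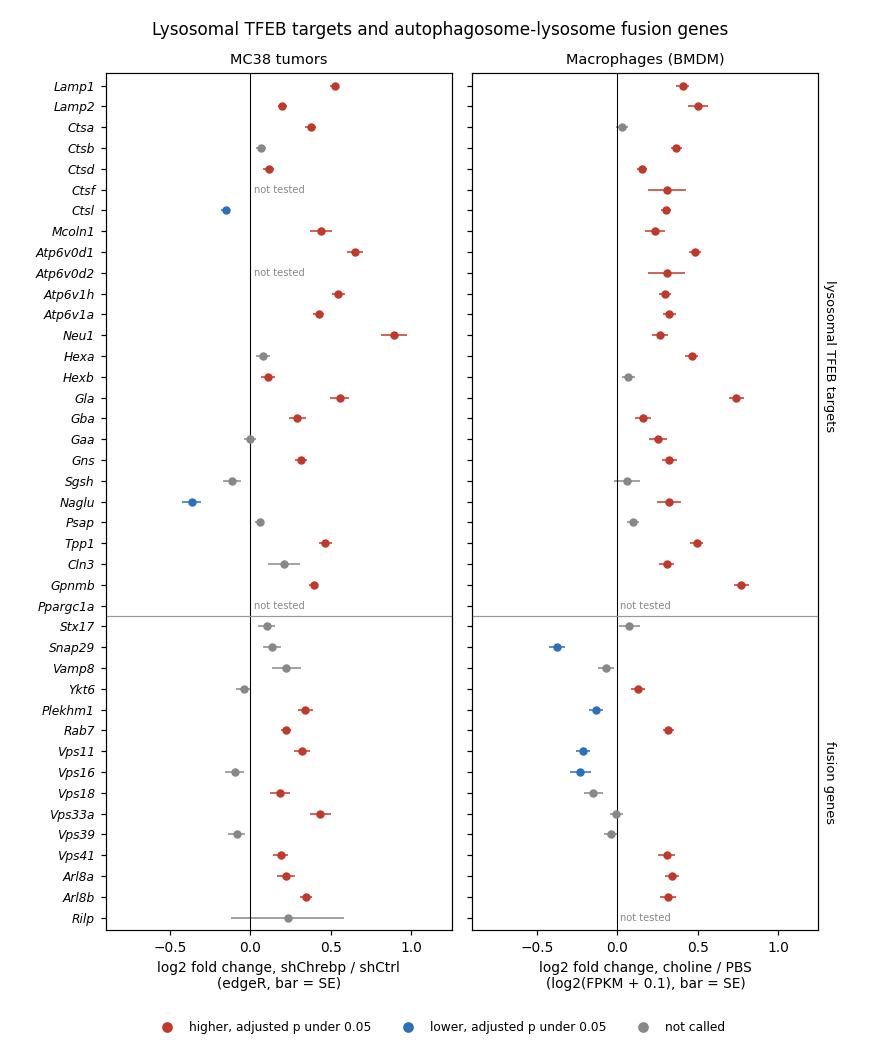
Log2 fold change of the lysosomal TFEB targets (upper block) and the fusion genes (lower block) in shChrebp against shCtrl tumors (left, edgeR) and choline against PBS macrophages (right, log2(FPKM + 0.1) scale). Points are estimates, bars are 1 SE and colors mark calls at an adjusted p under 0.05. Of the lysosomal targets 15 rose in tumors and 21 with choline. Of the fusion genes 8 rose in tumors, and 5 rose and 4 fell with choline.

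Of the mTORC1, AMPK and Rag genes upstream, 4 of 30 rose and 8 fell in tumors (13.3% and 26.7%, against 18.6% and 19.7% of all tested genes). With choline 8 of 29 rose and 10 fell (27.6% and 34.5%, against 28.2% and 29.2% of all tested genes). Lamtor3, a subunit gene of the scaffold that holds the Rag GTPases on lysosomes, rose in both comparisons (log2 fold change 0.49, SE 0.05, adjusted p = 5.48e-09 in tumors; log2 fold change 0.48, SE 0.06, adjusted p = 8.34e-05 in macrophages). Lamtor1, of the same scaffold, rose in tumors (log2 fold change 0.48, SE 0.07, adjusted p = 1.55e-06) and fell with choline (log2 fold change -0.35, adjusted p = 0.000419). Another scaffold gene, Lamtor2, named after its values were seen, was called lower in tumors (log2 fold change -0.265, adjusted p = 0.00497). Lamtor4 and Lamtor5 were not called in tumors. Tsc1, a brake on mTORC1, rose in tumors (log2 fold change 0.41, SE 0.05, adjusted p = 4.46e-07) and with choline (log2 fold change 0.21, adjusted p = 0.00912). Its partner genes Tsc2 and Tbc1d7, named after their values were seen, were called lower in tumors (log2 fold change -0.13, adjusted p = 0.0146, and -0.47, adjusted p = 0.00119). With choline Tbc1d7 rose (log2 fold change 0.39, adjusted p = 0.00263) and Tsc2 was not called. Deptor, an mTOR inhibitor gene, fell in tumors (log2 fold change -0.44, SE 0.06, adjusted p = 1.28e-06) and with choline (log2 fold change -0.25, adjusted p = 0.0262). With choline, Rheb, which encodes the GTPase that activates mTORC1, rose (log2 fold change 0.35, SE 0.04, adjusted p = 3.43e-05), and so did Rraga, of the partner of RagC (log2 fold change 0.38, SE 0.04, adjusted p = 6.43e-05). The stress-induced mTORC1 inhibitors Ddit4 (log2 fold change -0.79, SE 0.04, adjusted p = 5.73e-07) and Sesn1 (log2 fold change -0.74, SE 0.07, adjusted p = 2.58e-05) fell, and Sesn1 fell in tumors as well (log2 fold change -0.25, adjusted p = 0.0354). The tumor count of 8 lower genes ranged from 2 to 8 over the alternatives, with 2 by DESeq2. It was 5 without shChrebp 1, shChrebp 2 or shCtrl 2 and 4 without shCtrl 3.

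Of the other genes of autophagosome formation, 4 of 19 rose and 4 fell in tumors (21.1% and 21.1%, near the 18.6% and 19.7% of all tested genes), and DESeq2 called 2 higher. With choline 9 of 17 rose and 4 fell (52.9% and 23.5%, against 28.2% and 29.2%). Atg9b, the paralog of Atg9a, fell in both (log2 fold change -0.91, SE 0.10, adjusted p = 5.85e-08 in tumors; log2 fold change -0.68, SE 0.07, adjusted p = 4.35e-05 in macrophages). Trp53inp2, whose product carries LC3 out of the nucleus, fell in tumors (log2 fold change -0.74, SE 0.08, adjusted p = 1.78e-08) and rose with choline (log2 fold change 0.69, SE 0.07, adjusted p = 1.72e-05). Epg5, which encodes a tether for fusion with lysosomes, showed the widest rise of the list with choline (12.4 ± 0.642 FPKM with choline and 5.56 ± 0.509 FPKM with PBS; log2 fold change 1.14, SE 0.07, adjusted p = 1.6e-06). Epg5 was counted in this list and not among the fusion genes above. Of the other receptors, 5 of 18 rose and 6 fell in tumors (27.8% and 33.3%, against 18.6% and 19.7%), and DESeq2 called 3 lower. With choline 5 of 17 rose and 5 fell (29.4% each way), near the share of all tested genes. Bnip3, a mitophagy receptor gene that responds to hypoxia, rose in tumors (198 ± 8.06 CPM in shChrebp and 125 ± 5.31 CPM in shCtrl; log2 fold change 0.67, SE 0.04, adjusted p = 1.51e-14) and fell with choline (71.2 ± 3.43 FPKM with choline and 171 ± 16.4 FPKM with PBS; log2 fold change -1.25, SE 0.07, adjusted p = 7.69e-07). Its relative Bnip3l fell with choline (log2 fold change -0.57, SE 0.05, adjusted p = 7.66e-06). The list of FOXO factors and upstream kinases also holds genes of the phosphatase calcineurin and the non-kinase genes Ywhaz and Ywhae. Of this list 3 of 12 rose and 2 fell in tumors (25.0% and 16.7%, against 18.6% and 19.7%). With choline 2 of 11 rose and 2 fell (18.2% each way, against 28.2% and 29.2%). Sgk1, of a kinase, rose in tumors (log2 fold change 0.30, SE 0.04, adjusted p = 3.79e-07). So did Ppp3cb (log2 fold change 0.25, adjusted p = 8.06e-06) and Ppp3r1 (log2 fold change 0.17, adjusted p = 0.0029), of the phosphatase calcineurin. Akt1, of a kinase (log2 fold change -0.31, adjusted p = 0.00025), and Foxo3 (log2 fold change -0.25, adjusted p = 0.00482) fell with choline. The genes that fell in tumors and rose with choline were Ppp3ca, of the phosphatase calcineurin (log2 fold change -0.18, adjusted p = 0.000144 in tumors; log2 fold change 0.22, adjusted p = 0.0212 in macrophages), and Foxo1, of a transcription factor (log2 fold change -0.19, adjusted p = 0.0398 in tumors; log2 fold change 0.28, adjusted p = 0.0269 in macrophages). Both rises with choline were lost without PBS a or choline 3, that of Ppp3ca also without PBS 1 or choline 2, and that of Foxo1 without PBS b or choline 1. The tumor count of lower genes in that list was 1 by DESeq2 and without shChrebp 1, shChrebp 3, shCtrl 1 or shCtrl 2.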

How the data were processed

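RNA-seq was run on total RNA of 6 MC38 tumor libraries and 6 BMDM libraries, prepared with a VAHTS Universal V6 kit (per the labels' protocols). The build named in the submitters' processing notes is GRCm39. The aligner, counting tool and strand setting were not given in the sources used here. Per the file headers, the tumor table of the authors holds estimated counts and FPKM by Ensembl gene. Of the deposited estimated counts, 7.99% were not whole, and all were rounded before the test. The BMDM table deposited by the authors holds values that are FPKM by their size and steps. Reads were recovered from them, and 19496 of 19496 rows came out whole within 0.1 reads. A further 2 rows with a displaced entry were left out.

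Tumor rows were named by Ensembl identifier, which gave a symbol to 22219 of 22274 rows. Columns were assigned to samples by their headings. Of the PBS columns, 2 carry the same heading and are called PBS a and PBS b. Tumor counts were tested with edgeR 4.0.16 (quasi-likelihood F test, TMM library sizes, low counts filtered), and CPM are TMM-scaled. BMDM values were tested with limma 3.58.1 on log2(FPKM + 0.1), both in R 4.3.3 and with Benjamini-Hochberg adjustment over all genes tested. Scripts were tested on simulated data. Alternatives were DESeq2 1.42.0, other size factors, no filter, limma on tumor FPKM, a pseudocount of 1, edgeR and DESeq2 on recovered BMDM reads, a replicate block, and leaving out each library.

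Genes and lists were chosen with earlier results of these data known, so no p is given for a list. Values in every library and statistics go to genes of the set in the comparison that called them and to Tfeb, Tfe3, Mitf, Sqstm1, Map1lc3b and Becn1, and uncalled genes are given by range or level. From each further list at most 4 called genes with the smallest adjusted p per comparison were named, with their value in the other comparison where called. Genes of these lists outside this rule are marked above as named after their values were seen. Replicate pairs of a group differed by more than counting noise. Promoters are RefSeq sequences on GRCm38.p6.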

Additional observations from a re-analysis of the deposited data

How the results depend on the processing

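The number of autophagy genes that rose stayed within 1.5 times the reported count under every alternative run. Leaving out 1 library gave 11 to 13 higher genes in tumors and 17 to 23 in macrophages, and 3 to 5 lower in tumors and 5 to 7 in macrophages. DESeq2 called 3 autophagy genes lower in tumors, against 5 with edgeR, and limma on FPKM called 1503 of all tumor genes lower, against 2316 reported. Of 18 tumor calls, 12 held under all 11 alternatives, and of 29 macrophage calls, 22 held under all 10. The settings that ended the others are named beside them above where they leave out a library. The cause was not tested. Among the genes named from the set, direction turned for 2 that were not called: tumor Becn1 (-0.049) and tumor Mitf (0.005, log2 fold change) under limma on FPKM, and macrophage Becn1 (0.012) without choline 1, with -0.062 to 0.012 over the left-out libraries. With the replicate number as a block in tumors, 13 autophagy genes rose and 5 fell, and 2264 of all genes rose and 2376 fell. Same-numbered tumor libraries did not deviate together, with correlations of 0.06, -0.06 and -0.03. No paired analysis was possible for macrophages because 2 PBS columns carry the same number. In tumors, the length implied by counts and FPKM varied by over 5% between libraries for 15 of the 45 genes, which limits what FPKM shows for these. Few reads limit Map1lc3a and Atg10 in macrophages, and Rragd in tumors. Among uncalled tumor genes, counts were also low for Tfeb (81 to 150), Mitf (69 to 107), Atg10 (66 to 105) and Map1lc3a (106 to 155). Their SE of 0.139 to 0.165 limits the size of change that could be called.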
